A study of Mus musculus with 6 samples.

Results

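Mast cells and basophils store and display a small set of effector proteins, and 10 of their genes were followed here in mouse marrow cultures depleted of Rad21, a subunit of the cohesin ring. The genes were given as a list that was chosen with earlier results of these data known. Each was measured by every probe set annotated to exactly that gene. They are Fcer1a, Ms4a2, Cpa3, Hdc, Mcpt1, Mcpt2, Mcpt4, Mcpt8, Tpsb2 and Cma1. All 10 had a probe set, and together they had 12 of the 20380 probe sets used and were 10 of 12393 genes.

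Marrow depleted of lineage-positive cells came from C57/BL6 mice (6 to 8 weeks old) and was exposed for 24 h to a lentivirus that carried no shRNA (empty vector) or 1 of 2 shRNAs against Rad21 (Rad21 shRNA1 and Rad21 shRNA2). All groups were selected overnight in puromycin at 1 µg per mL, sorted for live cells, plated at 10000 cells per mL in methylcellulose with unnamed cytokines and collected on day 7. Each group had 2 Affymetrix arrays, 6 in all. The labels do not say whether replicates came from separate animals or cultures, so p-values reflect the spread among the arrays alone, and that may be technical.

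Mast cells and basophils are granulocytes that carry the high-affinity IgE receptor on their surface. When antigen cross-links bound IgE, they release granules that hold histamine and proteases bound to proteoglycan. The proteases of mouse mast cells are chymases, tryptases and carboxypeptidase A3, and basophils have a granule protease of their own, encoded by Mcpt8. Both cell types arise from Gata2-dependent myeloid progenitors, and marrow cultured with suitable cytokines yields them.

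The arrays differed in quality. On empty-vector replicate 1 the 3′ control probe set of Gapdh lay 2.42 log2 units above the 5′ one, against -0.078 to 0.017 on the other 5 arrays. The root mean square deviation from the group mean was 0.321 with empty vector, 0.152 with shRNA1 and 0.141 with shRNA2. A single spread is fitted for the 3 groups, so values without an empty-vector array stand beside many of the results. Leaving out a control also takes the gap between the 2 controls out of that spread. A call gained in that way can come from the smaller spread and is not a check of the result. Without replicate 2, the lone control is replicate 1, the array with the gap between its 3′ and 5′ probe sets. Without replicate 2, 25.2% of all genes passed for both shRNAs, against 5.24% without replicate 1 and 2.13% with both, and counts from that fit are to be read against this share. Rad21 itself stood at 11.14 and 10.49 log2 units with empty vector, 9.63 and 9.14 with shRNA1 and 9.50 and 9.11 with shRNA2. Its difference was -1.47 ± 0.26, which missed the threshold (limma adjusted p = 0.0558) and passed it with the replicate number as a block (0.0166). The difference of Rad21 was -1.15 without empty-vector replicate 1 and -1.80 without replicate 2.

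The first comparison asked what either shRNA changed. Each difference is a log2 value, the mean of the shRNA groups less that of empty vector, given ± its standard error from limma (n = 4 and 2 arrays). Fcer1a and Mcpt2 fell, each to 24.3% of its empty-vector level, and the other 8 genes did not pass an adjusted p of 0.05. So 2 of 10 fell and 0 rose, while 1.4% of all genes tested fell and 0.734% rose. The 10 genes were chosen with earlier results of these data known. The shares of all genes are therefore a description and not a test of the list. All 10 differences were below 0, as were those of 53.6% of all genes, and 6 of the 10 had an unadjusted p under 0.05 with a lower level, against 8.84% of all genes. The median difference was -0.98, and it was -0.023 over all genes tested. The 10 genes split into those whose arrays separated, namely Fcer1a, Ms4a2, Mcpt1, Mcpt2, Mcpt4 and Cma1, and those whose arrays overlapped, namely Cpa3, Hdc, Mcpt8 and Tpsb2. Thus 6 of 10 had all 4 shRNA arrays below both empty-vector arrays, compared with 13.6% of all genes. In these bulk samples, fewer cells of a type and less RNA per cell cannot be told apart. The number called, all lower, was 3 without empty-vector replicate 1 and 4 without replicate 2, fits in which 3.27% and 12.1% of all genes fell. It was 0 without any single 1 of the 4 shRNA arrays, where 0.00807% to 0.484% of all genes fell.

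**Figure D1:**
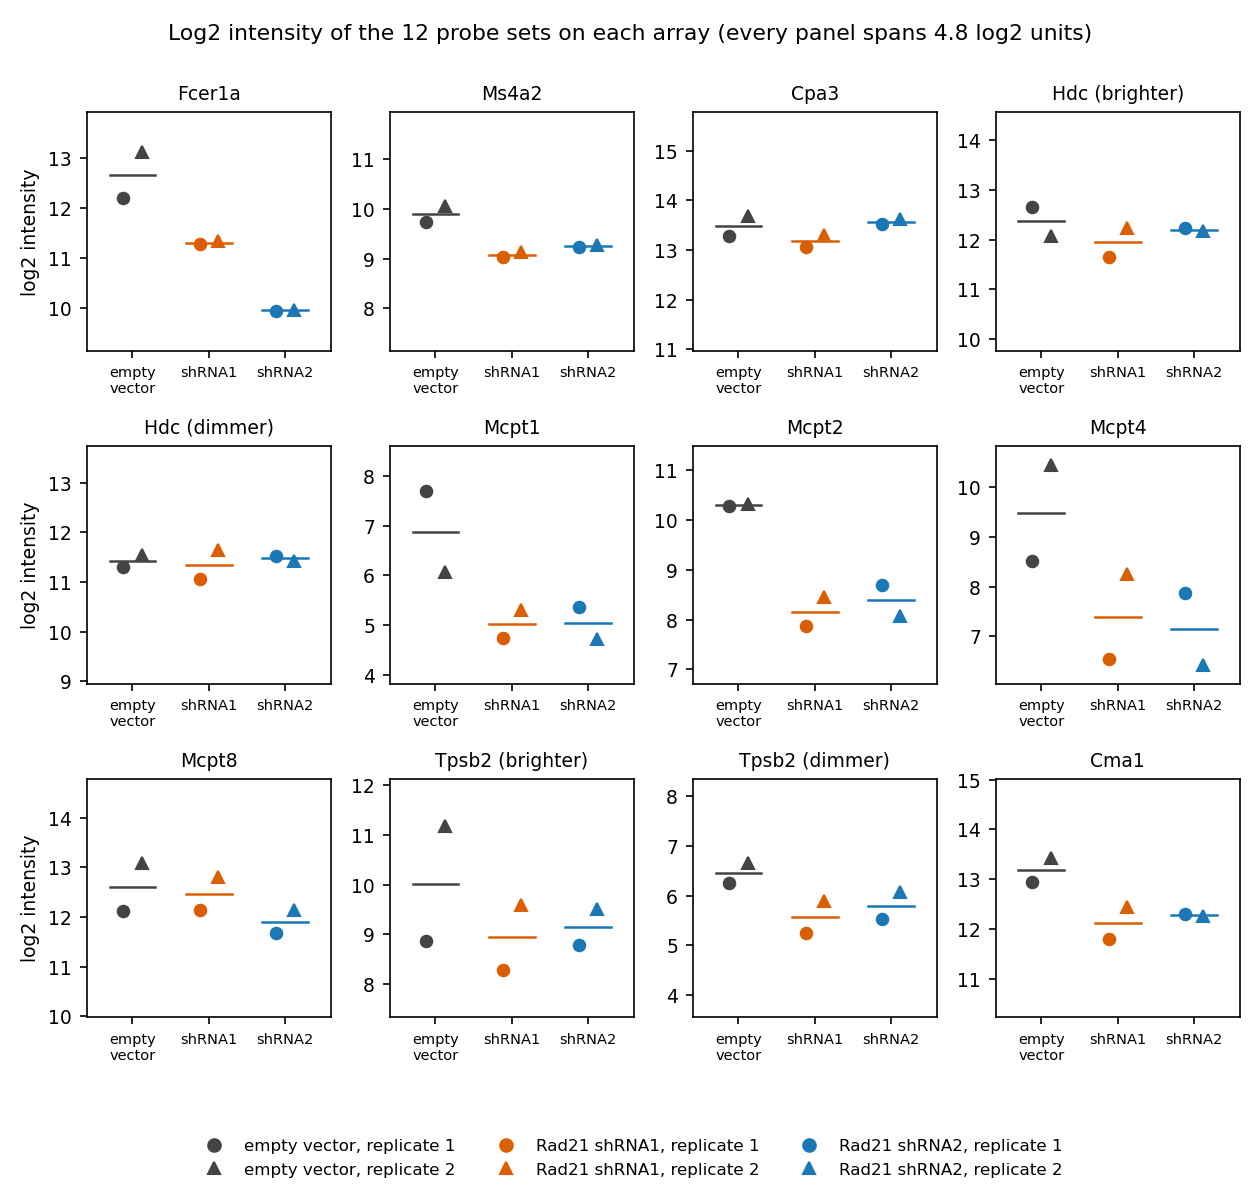
Log2 intensity (vertical axis) of each of the 12 probe sets on the 6 arrays, by group; circles are replicate 1, triangles replicate 2 and bars the mean of 2 arrays. Fcer1a steps down from empty vector to shRNA1 to shRNA2, Mcpt2 drops from 10.3 to between 7.87 and 8.69, and Cpa3 and Hdc overlap between groups.

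The IgE receptor is built of an alpha chain that binds IgE, encoded by Fcer1a, a beta chain that amplifies the signal, encoded by Ms4a2, and gamma chains, encoded by Fcer1g. Fcer1a stood at 12.21 and 13.13 with empty vector, 11.28 and 11.34 with shRNA1 and 9.93 and 9.96 with shRNA2. No 2 groups overlapped, and the 2 arrays of each shRNA nearly coincided. It fell by 2.04 ± 0.26 on the log2 scale (limma adjusted p = 0.0272). The difference was -2.50 ± 0.13 without empty-vector replicate 1 and -1.59 ± 0.13 without replicate 2. The gap between the controls is not part of the spread in those fits. It missed the threshold without any single shRNA array, at adjusted p from 0.0968 to 0.142, and with a pseudocount of 16 (0.0518). Its adjusted p ranged from 0.0028 to 0.142 over all alternatives.

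Ms4a2 stood at 9.73 and 10.06 with empty vector, 9.03 and 9.13 with shRNA1 and 9.23 and 9.28 with shRNA2. All 4 shRNA arrays were lower than both controls, by a smaller margin than for Fcer1a. The difference of -0.73 ± 0.15 missed the threshold (limma adjusted p = 0.0808). It was -0.89 ± 0.13 without empty-vector replicate 1 and -0.56 ± 0.13 without replicate 2, where the gap between the controls again drops out of the spread. The gamma chain gene Fcer1g, which other myeloid cells also use and which was added here after its values were seen, differed by 0.36 (limma adjusted p = 0.573). The difference was -0.10 without empty-vector replicate 1 and 0.82 without replicate 2, where it passed (0.0121).

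The chymases were represented by Mcpt1, Mcpt2, Mcpt4 and Cma1, the last of which encodes mast cell protease 5. Mcpt2 stood at 10.29 and 10.33 with empty vector, 7.87 and 8.45 with shRNA1 and 8.69 and 8.08 with shRNA2. Both controls were nearly equal and all shRNA arrays were far below them. It fell by 2.04 ± 0.25 on the log2 scale (limma adjusted p = 0.0225), by 2.06 without empty-vector replicate 1 and by 2.02 without replicate 2. Without a single shRNA array its adjusted p was 0.0501 to 0.0943, and with array weights 0.148, the highest value in a range from 0.0101.

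Cma1 stood at 12.94 and 13.43 with empty vector, 11.80 and 12.45 with shRNA1 and 12.30 and 12.27 with shRNA2. The groups did not overlap, and its difference of -0.98 ± 0.24 missed the threshold (limma adjusted p = 0.117, range 0.0587 to 0.381). Mcpt4, a chymase of connective tissue mast cells, stood at 8.52 and 10.45 with empty vector, 6.54 and 8.24 with shRNA1 and 7.87 and 6.42 with shRNA2. Its arrays differed by 1.44 to 1.93 within each group, and its lower control lay just above its highest shRNA array.

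The difference of Mcpt4 was -2.22 ± 0.75 and missed the threshold (limma adjusted p = 0.228). That difference was -3.19 without empty-vector replicate 1 and -1.25 without replicate 2, and neither passed. Mcpt1, a chymase of mucosal mast cells, stood at 7.69 and 6.06 with empty vector, 4.74 and 5.31 with shRNA1 and 5.36 and 4.73 with shRNA2. Here replicate 1 was the higher control, the reverse of Mcpt4, Cma1 and Fcer1a. The difference of -1.84 ± 0.48 missed the threshold (limma adjusted p = 0.137). Without empty-vector replicate 2 it was -2.66 and passed (0.00494), and without replicate 1 it was -1.02 and did not (0.147). Mcpt1 was dim enough to fall among the dimmer 50% of genes.

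The genes Mcpt1, Mcpt2 and Mcpt4 are paralogs, and the files do not say how far the probes of 1 bind the RNA of another, so their values are uncertain as measures of each single gene. The 3 did not run in parallel across arrays: the empty-vector arrays differed by 1.63 for Mcpt1, by 0.038 for Mcpt2 and by 1.93 for Mcpt4, the first and last in opposite directions.

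Mcpt8, the basophil granule protease, stood at 12.11 and 13.08 with empty vector, 12.14 and 12.80 with shRNA1 and 11.67 and 12.14 with shRNA2. Its groups overlapped, and the difference was -0.41 ± 0.34 (limma adjusted p = 0.616). Without empty-vector replicate 1 it was -0.90 and without replicate 2 0.074. The tryptase gene Tpsb2, which encodes mast cell protease 6, stood at 8.86 and 11.17 with empty vector, 8.28 and 9.59 with shRNA1 and 8.79 and 9.50 with shRNA2. Replicate 2 was the higher array in every group, and the gap between the controls was 2.31.

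Its difference was -0.97 ± 0.70 (limma adjusted p = 0.563), or -2.13 without empty-vector replicate 1 and 0.18 without replicate 2, neither past the threshold. A dimmer Tpsb2 probe set stood at 6.25 and 6.65 with empty vector, 5.25 and 5.89 with shRNA1 and 5.54 and 6.07 with shRNA2. All 4 shRNA arrays lay below both controls there, and the difference was -0.77 ± 0.27 (adjusted p = 0.269 by limma over all 20380 probe sets).

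Cpa3, the carboxypeptidase that is stored with the chymases, stood at 13.29 and 13.68 with empty vector, 13.06 and 13.30 with shRNA1 and 13.51 and 13.62 with shRNA2. These arrays overlapped, and the difference was -0.11 ± 0.17 (limma adjusted p = 0.814), or -0.30 without empty-vector replicate 1 and 0.084 without replicate 2. Hdc, which makes histamine from histidine, stood at 12.67 and 12.08 with empty vector, 11.66 and 12.23 with shRNA1 and 12.24 and 12.17 with shRNA2, and differed by -0.30 ± 0.24 (adjusted p = 0.607), or by -0.0056 without empty-vector replicate 1 and -0.59 without replicate 2. Its dimmer probe set lay between 11.05 and 11.64 on all 6 arrays and differed by -0.013 ± 0.20. A p that misses the threshold does not show that the levels are equal, and the standard errors of 0.17 to 0.24 give the precision of these estimates.

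**Figure D2:**
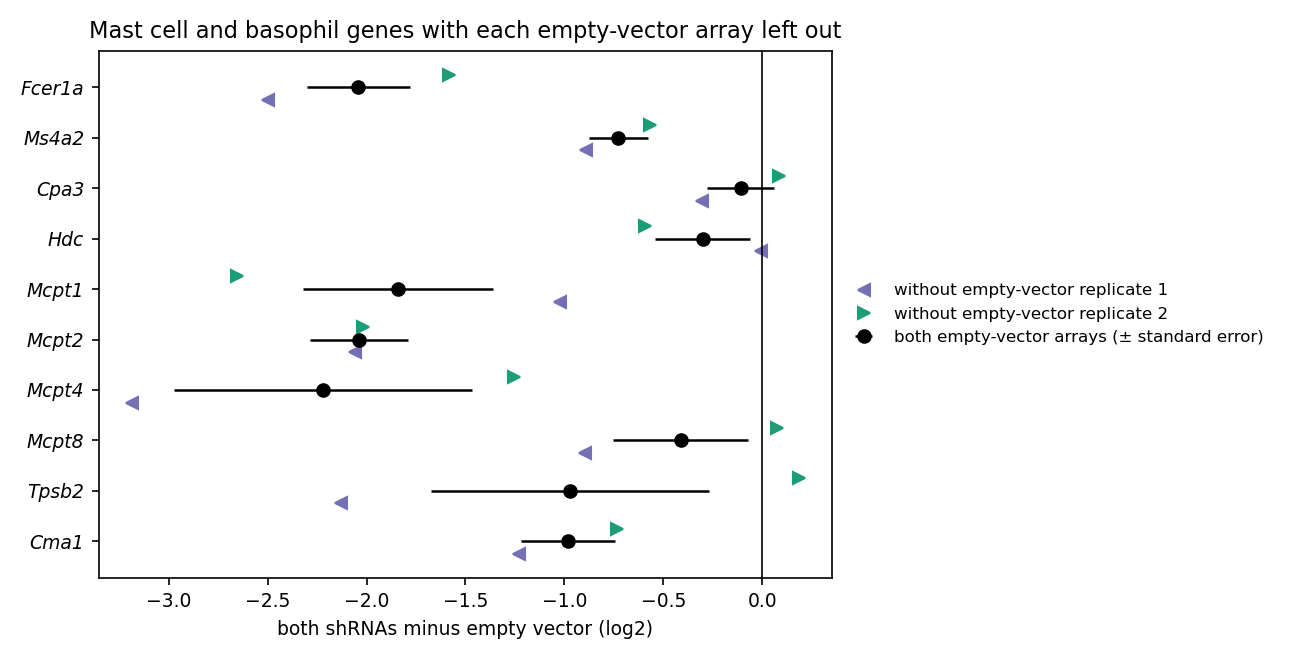
Difference of both shRNAs from empty vector (horizontal axis, log2) for the 10 genes, with both controls (black, ± standard error) and with 1 control array left out (triangles). Mcpt2 stays near -2.04 in all 3 fits, while Tpsb2 runs from -2.13 to 0.18 and Mcpt4 from -3.19 to -1.25.

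Promoters are shown for Fcer1a, which fell, for the paralogs Mcpt1 and Mcpt4, which can be compared base by base, and for Cpa3, whose groups overlapped. Each line is the 250 bases before the RefSeq start of assembly GRCm38.p6, 5′ to 3′ on the gene's strand. Capitals mark GATAA on either strand (TTATC on the other), the core of the sites that GATA factors bind. They are Fcer1a at chr1:173227230-173227479, minus strand; Mcpt1 at chr14:56017714-56017963, plus strand; Mcpt4 at chr14:56062311-56062560, minus strand; and Cpa3 at chr3:20242182-20242431, minus strand.
Fcer1a: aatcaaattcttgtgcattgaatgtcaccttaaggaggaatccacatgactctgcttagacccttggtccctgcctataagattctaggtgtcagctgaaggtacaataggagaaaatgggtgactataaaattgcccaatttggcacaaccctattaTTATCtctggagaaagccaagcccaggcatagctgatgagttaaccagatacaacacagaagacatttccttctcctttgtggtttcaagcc
Mcpt1: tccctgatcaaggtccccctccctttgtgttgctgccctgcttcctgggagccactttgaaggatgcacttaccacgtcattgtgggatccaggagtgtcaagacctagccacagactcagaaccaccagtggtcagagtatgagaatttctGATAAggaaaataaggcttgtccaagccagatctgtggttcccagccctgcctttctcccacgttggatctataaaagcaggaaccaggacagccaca
Mcpt4: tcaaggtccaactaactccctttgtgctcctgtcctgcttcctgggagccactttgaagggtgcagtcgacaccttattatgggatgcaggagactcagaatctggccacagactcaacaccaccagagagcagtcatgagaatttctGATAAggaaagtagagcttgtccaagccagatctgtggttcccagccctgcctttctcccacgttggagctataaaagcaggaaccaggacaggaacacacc
Cpa3: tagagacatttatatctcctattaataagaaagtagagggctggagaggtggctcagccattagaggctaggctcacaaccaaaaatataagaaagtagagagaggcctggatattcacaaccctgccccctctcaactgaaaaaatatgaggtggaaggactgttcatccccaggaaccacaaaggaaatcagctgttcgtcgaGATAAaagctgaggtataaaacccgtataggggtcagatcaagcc

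Of the 10 genes, 8 had an entry in the RefSeq promoter table, all but Mcpt2 and Tpsb2. GATAA stood in 6 of the 8 promoters, compared with 22.6% of all 32851 promoters of the same length. Fcer1a, Cpa3, Mcpt1, Mcpt4 and Cma1 had 1 match each and Ms4a2 had 3. Hdc and Mcpt8 had none. The match of Cpa3 began 45 bases before the start. A link between these matches and the differences was not tested. CANNTG, the E box core, stood in 5 of the 8 and in 66.2% of all promoters, and TGACTCA, an AP-1 site, in 0 of the 8 and 4.46% of all. The promoters of Mcpt1 and Mcpt4 were identical at 207 of 254 aligned positions (81.5%), with GATAA 98 and 102 bases before the start, while the next most alike pair, Mcpt1 and Mcpt8, shared 51.3%. A match is a description of letters and not evidence of binding.

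The effect of each shRNA was then set beside the other. The single-shRNA comparisons share their 2 empty-vector arrays, with n = 2 and 2 arrays each. With shRNA1, 0 of 10 genes passed by limma, against 0.137% of all genes that fell, and 5 of 10 had an unadjusted p under 0.05, against 9.3% of all. With shRNA2, 2 of 10 fell, against 1.95% of all genes. The same 6 genes had both shRNA arrays below both controls in either comparison, where 19.5% of all genes did so with shRNA1 and 22.6% with shRNA2. The median difference was -1.07 with shRNA1 and -0.89 with shRNA2. With shRNA1 the number called was 1 without empty-vector replicate 1, where 0.621% of all genes fell, and 4 without replicate 2, where 9.34% did. With shRNA2 it was 0 without any single shRNA array, where at most 0.694% of all genes fell.

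Fcer1a separated the shRNAs most. It differed by -1.36 ± 0.30 with shRNA1 (38.9% of control, limma adjusted p = 0.207) and fell by 2.72 ± 0.30 on the log2 scale with shRNA2 (15.1% of control, 0.0159). With shRNA1 it differed by -1.82 without empty-vector replicate 1 and by -0.90 without replicate 2. With shRNA2 it missed the threshold without any single shRNA array (0.0561 to 0.158). The test of the difference itself, shRNA1 minus shRNA2, gave 1.36 ± 0.30, a 2.57-fold higher level with shRNA1, with an unadjusted p of 0.00415 and a limma adjusted p of 0.494. This difference passed with array weights (0.0199) and when either empty-vector array was left out (0.0363 both times), fits in which the spread between the controls counts less or not at all. Its range over all alternatives was 0.0199 to 1.00.

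Mcpt2 differed by -2.15 ± 0.28 with shRNA1 (22.5% of control, limma adjusted p = 0.0615) and fell by 1.93 ± 0.28 with shRNA2 (26.3%, 0.0315). With shRNA1 it passed without empty-vector replicate 2 (-2.13, adjusted p = 0.0142). With shRNA2 it missed the threshold without any single shRNA array (0.0654 to 0.214), with array weights (0.111) and with a pseudocount of 16 (0.0554). The shRNAs differed from each other by -0.22 ± 0.28 for Mcpt2, by -0.018 ± 0.55 for Mcpt1, by 0.25 ± 0.87 for Mcpt4 and by -0.16 ± 0.27 for Cma1. In all, 0 of 10 genes, and 0% of all genes in either direction, passed between the shRNAs by limma. An unadjusted p under 0.05 was reached by 1 of the 10, Fcer1a, and by 4.89% of all genes.

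Cpa3 was lower with shRNA1 than with shRNA2 on both arrays (-0.39 ± 0.19, limma adjusted p = 0.999), and Mcpt8 was higher with shRNA1 on both (0.57 ± 0.39, 0.999). Against the controls Cpa3 differed by -0.30 ± 0.19 and 0.084 ± 0.19 and Mcpt8 by -0.13 ± 0.39 and -0.69 ± 0.39, in that order of shRNAs. The order of the group means was empty vector, then shRNA1, then shRNA2 for Fcer1a, Mcpt4 and Mcpt8. It was empty vector, then shRNA2, then shRNA1 for Ms4a2, Hdc, Mcpt1, Mcpt2, Tpsb2 and Cma1, and for Cpa3 it was shRNA2, then empty vector, then shRNA1. The arrays of the shRNAs overlapped for Hdc, Mcpt1, Mcpt2, Mcpt4, Tpsb2 and Cma1, so these neighbours in the order did not separate. Both shRNA1 arrays lay below both shRNA2 arrays for 2 of the 10 genes and above them for 2. Of all 12393 genes, 2967 lay below and 2191 above in the same way, so such separation was common.

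**Figure D3:**
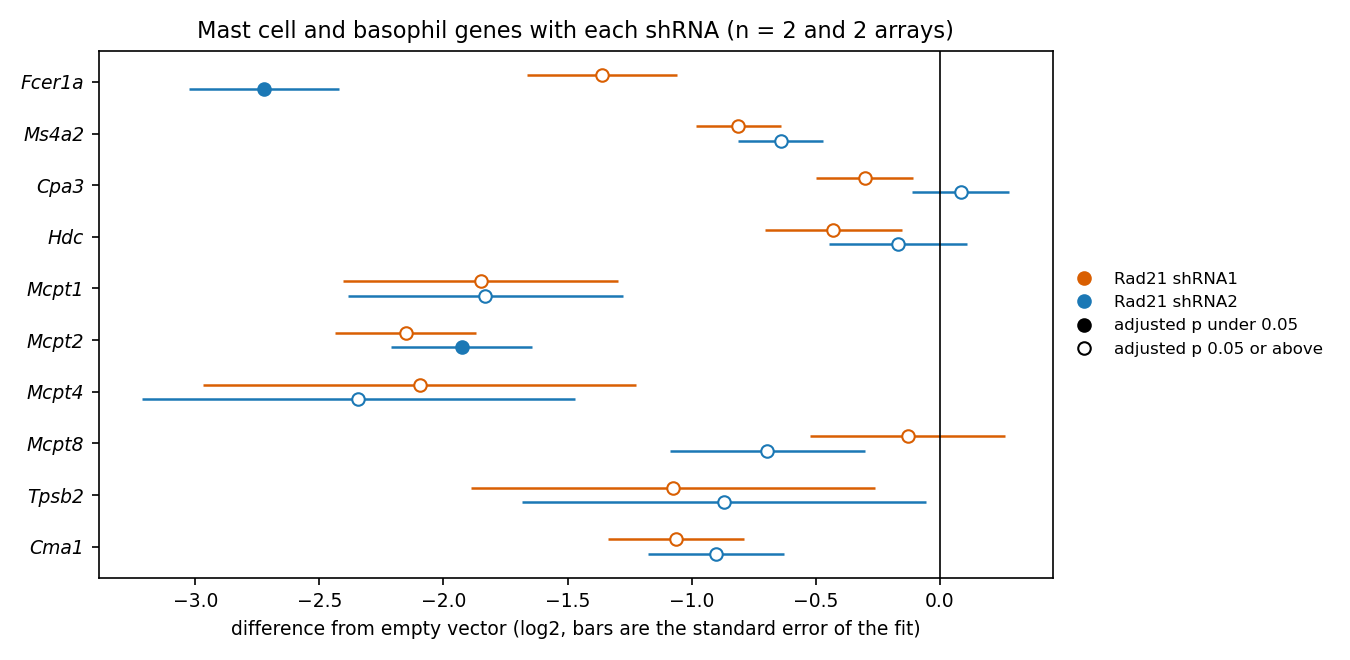
Difference from empty vector (horizontal axis, log2, ± standard error, n = 2 and 2 arrays) with shRNA1 and shRNA2 for each gene; filled points had an adjusted p under 0.05. The points of Fcer1a lie 1.36 apart, and those of the 4 chymases, Mcpt1, Mcpt2, Mcpt4 and Cma1, lie within 0.25 of each other.

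The chymase genes stand next to each other on mouse chromosome 14, and the RefSeq table gives their order as Cma1, Cma2, Mcpt1, Mcpt2, Mcpt9, Mcpt4, Mcpt8, Ctsg and then the granzymes from Gzme to Gzmb. Cma2 and Mcpt9 share 1 probe set and are not analysed here. The sign of the difference turned between neighbours. Ctsg, the neutrophil granule protease cathepsin G, which mast cells can also store, is next to Mcpt8. It stood at 10.09 and 10.32 with empty vector, 12.67 and 11.84 with shRNA1 and 13.21 and 13.21 with shRNA2. It rose by 2.53 ± 0.25 (5.77-fold, limma adjusted p = 0.0138), and missed the threshold without shRNA2 replicate 1 (0.0854), without shRNA2 replicate 2 (0.0778) and with array weights (0.0729), over a range of 0.00471 to 0.0854.

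Gzmb, a granzyme of cytotoxic cells that mast cells also make, lay below both controls on all shRNA arrays, at -0.66 ± 0.19 (limma adjusted p = 0.174). Gzmg differed by 0.16 ± 0.13 (0.63) and Gzmf by -0.082 ± 0.14 (0.837), and both lay between 2.80 and 3.19 log2 units on all 6 arrays. Of the 8 measured neighbours outside the 10 genes, 1 rose and 0 fell, against 0.734% and 1.4% of all genes.

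**Figure D4:**
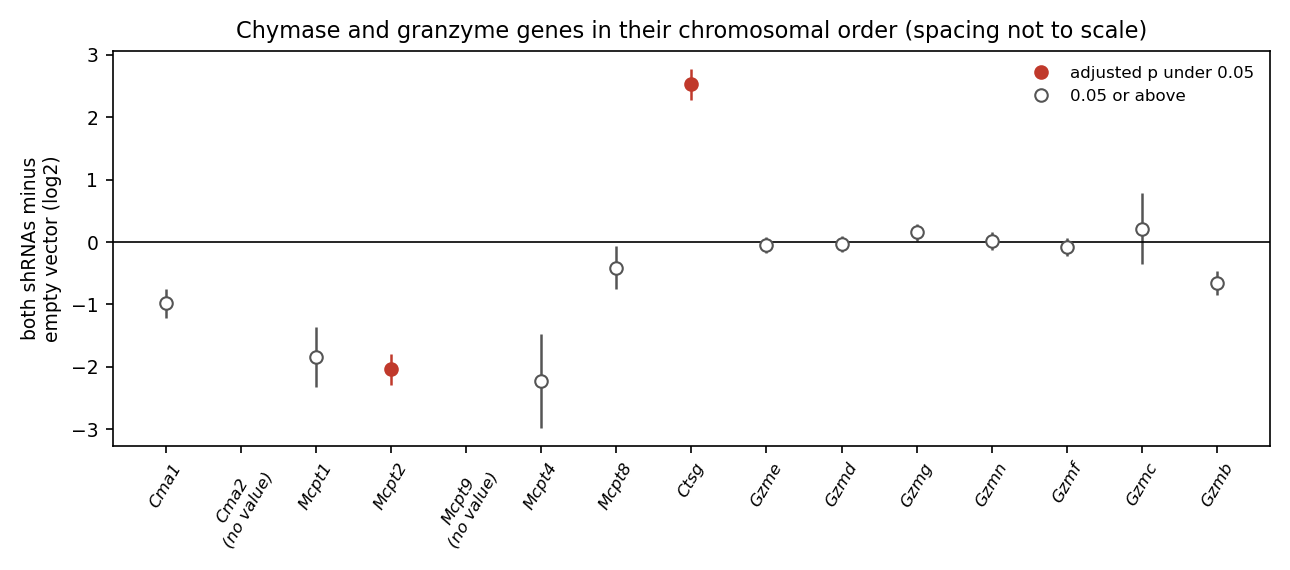
Difference of both shRNAs from empty vector (vertical axis, log2, ± standard error) for the genes of the chymase and granzyme cluster in chromosomal order, which is not to scale. Mcpt2 (-2.04) and Ctsg (2.53) are the filled points, on either side of 0.

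Other mast cell genes were taken from 3 lists written for this account. Among receptors and signalling genes, 2 of 20 fell and 0 rose, with a median of -0.20. Over all genes tested, 1.4% fell and 0.734% rose. Itgb7, an integrin chain that brings mast cell progenitors into tissue, stood at 9.91 and 9.88 with empty vector and between 8.08 and 8.84 on the shRNA arrays. It fell by 1.49 ± 0.18 (limma adjusted p = 0.0207) and missed the threshold without shRNA1 replicate 1 (0.087), without shRNA2 replicates 1 and 2 (0.128 and 0.100) and with array weights (0.115). Kit, the receptor for stem cell factor on which mast cells depend, stood at 11.00 and 11.10 with empty vector and between 8.93 and 9.82 on the shRNA arrays.

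Kit fell by 1.61 ± 0.25 (limma adjusted p = 0.0412), a call that was lost in 9 of 17 alternatives, among them each shRNA array left out (0.0564 to 0.182) and array weights (0.225). Fyn, a kinase downstream of the IgE receptor, differed by -0.91 ± 0.17 (limma adjusted p = 0.0608, but 0.0254 with the mean of its probe sets). Lat, an adaptor of that pathway, differed by -1.21 ± 0.26 (0.0939), or by -0.99 without empty-vector replicate 1 and -1.44 without replicate 2. Il3ra, the alpha chain of the interleukin 3 receptor, differed by -1.16 ± 0.28 (0.12), or by -0.74 without empty-vector replicate 1 and -1.58 without replicate 2, where it passed (0.00857). The count was 3 falling without empty-vector replicate 1, with Fyn added. It was 5 falling and 3 rising without replicate 2, where 12.1% of all genes fell and 13.1% rose. It was 0 without shRNA1 replicate 1 or either shRNA2 array, 1 without shRNA1 replicate 2 and 0 with array weights.

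Among 24 other granule and mediator genes, 1 rose, Ctsg, and 1 fell, against 0.734% and 1.4% of all genes. The median of the 24 was -0.21. The gene that fell was Tpsg1, a membrane-anchored tryptase, which stood at 10.54 and 10.78 with empty vector and between 8.76 and 9.38 on the shRNA arrays. Its difference was -1.61 ± 0.21 (limma adjusted p = 0.0289), and it missed the threshold without shRNA1 replicate 1 (0.0844), without shRNA2 replicates 1 and 2 (0.154 and 0.132), with array weights (0.142) and with a pseudocount of 16 (0.0505). Tpsab1, the paralog of Tpsb2 that encodes mast cell protease 7, stood at 7.46 and 9.08 with empty vector, 6.26 and 7.23 with shRNA1 and 5.73 and 5.17 with shRNA2. How far the probes of Tpsab1 and Tpsb2 bind each other's RNA was not examined. Their values are thus uncertain as measures of each single gene.

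The arrays of Tpsab1 did not overlap, and it differed by -2.17 ± 0.51 (limma adjusted p = 0.111), or by -2.99 without empty-vector replicate 1, where it passed (0.0232, range 0.0232 to 0.36). Il6, a cytokine that activated mast cells secrete, differed by -1.94 ± 0.43 (0.1, and 0.0271 with the replicate number as a block, range 0.0271 to 0.433). Ddc, a decarboxylase of amine synthesis, differed by -1.56 ± 0.38 (0.116), or by -0.90 (0.0817) without empty-vector replicate 1 and -2.22 (0.00356, past the threshold) without replicate 2. With the block 3 of the 24 fell, Tpsg1, Il6 and Il4, the last of which lies outside the naming rule and is named after its values were seen. The counts were 1 rising and 2 falling without empty-vector replicate 1, 6 rising and 4 falling without replicate 2 (the fit in which 13.1% of all genes rose and 12.1% fell), and 0 without either shRNA2 array or with array weights. Without shRNA1 replicate 1, or with the pseudocount, only Ctsg passed.

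Of 16 mast cell transcription factors, 0 passed by limma and the median was -0.36, while 7 reached an unadjusted p under 0.05, against 16.7% of all genes. Gata2 stood at 11.98 and 11.54 with empty vector and between 10.36 and 10.97 on the shRNA arrays, a difference of -0.98 ± 0.23 (limma adjusted p = 0.109). Gata1 differed by -1.17 ± 0.37 (0.206). Its level was 10.61 on empty-vector replicate 1 and 9.37 on replicate 2, and the difference was -0.55 without replicate 1 and -1.79 without replicate 2, where it passed (0.00795). Of the 16, 11 were below 0 and 5 above it. Gfi1, a repressor of myeloid cells named after its values were seen, had the largest difference of the list by size with both controls, 1.91 ± 0.46 (0.116), or 1.21 without empty-vector replicate 1 and 2.61 without replicate 2. Mitf, a regulator of mast cell protease genes, differed by -0.096 ± 0.24 (0.9) with overlapping groups. The basic leucine zipper factor Cebpb differed by -0.73 ± 0.14 (0.0706) and Bhlhe40 by -0.77 ± 0.17 (0.0976). Without empty-vector replicate 2, 6 of the 16 fell, among them Gata1, Gata2, Cebpb and Bhlhe40, and 1 rose, Gfi1, where 12.1% of all genes fell and 13.1% rose.

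**Figure D5:**
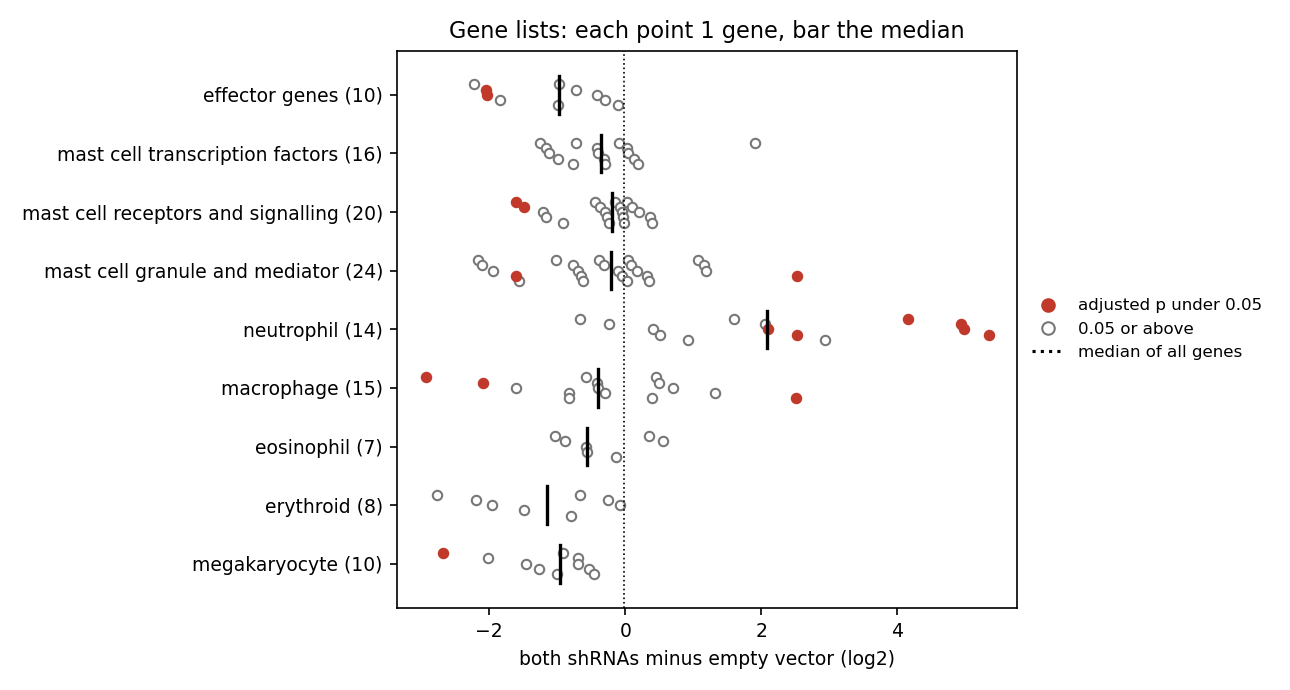
Difference of both shRNAs from empty vector (horizontal axis, log2) for each gene of the 10 effector genes, of the 3 other mast cell lists and of 5 other cell types; bars are medians, filled points had an adjusted p under 0.05 and the dotted line is the median of all genes. The effector genes all lie below 0 with a median of -0.98. So do all megakaryocyte and all erythroid genes, with medians of -0.96 and -1.15. The neutrophil genes have a median of 2.08.

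Markers of other cell types moved on the same arrays. The summed linear intensity of the 10 genes was 36706.5 and 52252.4 with empty vector and 23530.5 to 32246.0 on the shRNA arrays, so the groups did not overlap. That of 14 neutrophil genes was 43093.3 and 30045.5 with empty vector and 70609.3 to 92982.1 on the shRNA arrays. Of these, 6 rose and 0 fell, led by Elane (4.98 ± 0.21, limma adjusted p = 0.00293), and Ctsg is on this list too. Over all genes 0.734% rose and 1.4% fell. Fewer of the 14 passed when any single shRNA array was left out. Under array weights 4 of the 14 rose, against 0.137% of all genes. The median of the 14 was 2.08, or 2.42 without empty-vector replicate 1 and 1.36 without replicate 2. Of 10 megakaryocyte genes 1 fell, Clec1b (-2.68 ± 0.37, 0.0329, a call lost in 6 of 17 alternatives, range 0.00562 to 0.154), with a median of -0.96 and sums of 19033.1 and 21081.6 against 8064.2 to 15212.7. Eosinophil genes, some of which mast cells share, summed to 14307.9 and 6979.7 against 5762.0 to 8854.5. By limma 0 of the 7 passed, and 3 reached an unadjusted p under 0.05, against 16.7% of all genes. Alox15 differed by -1.04 ± 0.26 (limma adjusted p = 0.129), or by -0.67 without empty-vector replicate 1 and -1.40 without replicate 2.

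All 10 megakaryocyte genes were below 0, and 8 had all 4 shRNA arrays below both controls, against 53.6% and 13.6% of all genes. All 8 erythroid genes were below 0 too, with a median of -1.15, and 2 had separated arrays. Erythroid genes summed to 6679.3 on empty-vector replicate 1 and to 1171.4 on replicate 2, against 697.6 to 1054.9 on the shRNA arrays. Rhag differed by -2.77 ± 0.92 (limma adjusted p = 0.22). That difference was -1.11 without replicate 1 and -4.43 without replicate 2, where it passed (0.00477). Of 15 macrophage genes, 1 rose and 2 fell, against 0.734% and 1.4% of all genes. Of the 15, 9 were below 0, and the median was -0.41. Fcgr1 rose (2.51 ± 0.27, 0.0162), while the scavenger receptor genes Cd36 (-2.94 ± 0.34, 0.0199) and Marco (-2.09 ± 0.32, 0.0412), both named after their values were seen, fell. None of these calls held in every fit without 1 array. With the replicate number as a block, that of Marco was lost too (limma adjusted p = 0.0514). The macrophage median was -0.57 without empty-vector replicate 1 and -0.16 without replicate 2.

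Of 10 dendritic cell genes 0 passed by limma, with a median of -0.32, and 4 reached an unadjusted p under 0.05, against 16.7% of all genes. The smallest p was that of Itgax (-2.34 ± 0.45, limma adjusted p = 0.0666, but 0.0238 with the replicate block). Its difference was -2.95 without empty-vector replicate 1 and -1.72 without replicate 2. Of 10 T and NK cell genes 1 rose, Nkg7 (2.13 ± 0.19, limma adjusted p = 0.0109), against 0.734% of all genes. Of the 10, 5 were below 0 and the median was -0.00019. By limma 0 of 9 B cell genes passed, and 0 did at an unadjusted p under 0.05. Of these 5 were below 0, the median was -0.025, and Cd79b differed by 0.57 ± 0.25 (0.331), or by 0.28 and 0.85 without empty-vector replicates 1 and 2. Among 10 genes of stroma and endothelium 0 passed by limma, 7 were below 0 and the median was -0.08, while 1 reached an unadjusted p under 0.05. That 1 gene was Pdgfrb (2.08 ± 0.46, limma adjusted p = 0.0976, but 0.0411 with the block). Its difference was 2.84 without empty-vector replicate 1 and 1.32 without replicate 2. These last 3 lists were dim. Their mean levels on the 6 arrays were 5.45 to 5.69 log2 units for T and NK cells, 4.83 to 4.93 for B cells and 4.89 to 5.40 for stroma and endothelium. Only 1 T and NK gene, Nkg7, and 1 gene of stroma and endothelium lay outside the dimmer 50% of genes. Medians near 0 there do not show that such cells were present and unchanged. RMA gives no value of 0, so no marker is listed at 0. The part of these cell types in the differences of the mast cell and basophil genes was not tested.

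Over the 6 arrays, the genes whose levels ran most like the mean of the 10, each centred on its own mean, were Tmem9 (Pearson r = 0.991), Pi4ka (0.989), Rnf43 (0.986), Lama5 (0.981) and Nat9 (0.981), out of 12383 genes compared. All 5 were higher on empty-vector replicate 2 than on replicate 1, and these correlations over 6 arrays in 3 groups are a description. None of the 5 passed for both shRNAs by limma, with adjusted p from 0.111 to 0.318, and 4 of the 5 had an unadjusted p under 0.05. The 5 were picked on these arrays for their likeness to a mean that was lower on every shRNA array. Their p-values are therefore a description too and not a test.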

How the data were processed

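RNA of the 6 samples was hybridized to Affymetrix mouse arrays. The authors deposited 1 intensity per probe set and array, and the submitters' processing notes name RMA, a method that corrects background, quantile-normalizes arrays and summarises probes. It hides changes in total RNA per cell and compresses differences of dim probe sets. The RMA version is not given in the sources used here. Deposited values are linear (medians 100.2 to 104.9), so log2 was taken, with no pseudocount or filter.

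Of 22690 probe sets, 20393 had 1 gene in the platform annotation, 691 several and 1606 none listed. Of 64 control probe sets, 13 had 1 gene. After removal of these, 20380 remained for 12393 genes, each represented by its brightest probe set. RefSeq sequences and gene order are from GRCm38.p6, and no genome build is named for the arrays.

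Groups came from sample titles. Limma 3.58.1 (R 4.3.3; lmFit, eBayes) fitted all 3 groups at once, with 3 residual and 2.91 prior degrees of freedom, two-sided, with Benjamini-Hochberg adjustment over all genes at a threshold of 0.05. The procedure was tested on simulated data. Array weights with 2 arrays per group act per group (0.333 for empty vector, 1.56 and 1.93 for the shRNAs). Deviations of same-numbered arrays correlated at r = 0.578 between the shRNAs, but only at 0.199 and 0.148 between empty vector and shRNA1 and shRNA2. The replicate number was read as pairing arrays, from the data and not from the labels. Pairing with the controls is therefore weakly supported, and a call that the block adds rests on it. Blocked values are printed where a call changes. A fit without 1 array assumes the lone sample of its group varies like the others. Tables used pandas 2.3.3 and numpy 2.4.6 under Python 3.11.15, and plots used matplotlib 3.10.9.

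The 10 genes and all lists were chosen with earlier results of these data known. Always named were the 10 genes, Rad21, Gata1, Gata2, Mitf, Kit and Ctsg. Each mast cell list and the chymase neighbours added genes past the threshold (at most 6) and the 3 smallest p-values that missed it. Each other cell type added its smallest p, and 5 genes were named by likeness.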

Additional observations from a re-analysis of the deposited data

How the results depend on the processing

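Each of 17 alternatives changed 1 choice. The number of the 10 genes called was 2 for both shRNAs, 0 for shRNA1, 2 for shRNA2 and 0 between shRNAs. In that order, 2.13%, 0.234%, 2.83% and 0% of all genes were called. For both shRNAs the number among the 10 was 1 with array weights (0.412% of all genes) or a pseudocount of 16 (1.07%). For shRNA2 it was also 1 with array weights (1.29%) or the pseudocount (1.69%). Between shRNAs it was 1 with array weights (0.791%). Leaving out 1 array gave 0 to 4 for both shRNAs, 0 to 4 for shRNA1, 0 to 3 for shRNA2 and 0 to 1 between shRNAs. The median difference then ran from -1.22 to -0.66 for both shRNAs, from -1.39 to -0.75 for shRNA1, from -1.17 to -0.57 for shRNA2 and from -0.50 to 0.21 between shRNAs. The replicate block gave 2, 0, 2 and 0 calls in that order, and changed no call of the 10 genes. It called 2.32%, 0.186%, 3.62% and 0% of all genes. Among other named genes it added calls for Rad21, Il6, Il4, Itgax and Pdgfrb, and took away that of Marco (limma adjusted p = 0.0514).

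Among genes measured by their brightest probe set, signs turned in fits without 1 array: Cpa3 ran from -0.30 to 0.084 for both shRNAs and from -0.11 to 0.28 for shRNA2, Mcpt8 from -0.90 to 0.074 for both and from -0.61 to 0.36 for shRNA1, and Hdc from -0.46 to 0.12 for shRNA2. The dimmer Hdc probe set, with all arrays kept, also had the other sign for shRNA2 (0.052, against -0.17). Tpsb2 ran from -2.13 to 0.18 for both shRNAs, from -2.23 to 0.081 for shRNA1 and from -2.03 to 0.29 for shRNA2, and Mitf from -0.50 to 0.30 for both. Between shRNAs the ranges were -0.55 to 0.027 for Hdc, -0.33 to 0.30 for Mcpt1, -0.53 to 0.085 for Mcpt2, -0.61 to 1.10 for Mcpt4, -0.86 to 0.45 for Tpsb2 and -0.48 to 0.16 for Cma1. The causes were not tested.

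Over all genes, 264 passed for both shRNAs, 113 without the dimmer 50%, 51 with array weights, 132 with the pseudocount and 3 to 3121 without 1 array. For shRNA1, 29 passed, 3 without the dimmer 50%, 11 over probe sets, 17 with quantile normalization, 59 with an intensity trend, 8 with array weights, 7 with the pseudocount and 0 to 2534 without 1 array. For shRNA2, 351 passed, 180 without the dimmer 50%, 160 with array weights, 209 with the pseudocount and 0 to 2941 without 1 array. Between shRNAs it was 0, 98 with array weights and 0 to 44 without 1 array. The number of arrays, 2 a group, limits the precision, and the gap between the controls reached 2.31 (Tpsb2).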
